A study of Mus musculus with 19 samples.

Results

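The white blood cells of DBA/2 mice 9 weeks after CAWS administration (9 w) were compared with those taken right after the last injection (0 w). The comparison rests on 4 of the 18 RNA samples of the series, 2 at each time, chosen by their titles and not by any measured value. CAWS is a water-soluble mannoprotein and β-glucan preparation from Candida albicans that causes coronary arteritis when it is injected into mice, severely so in the DBA/2 strain. All mice were male, and all had received CAWS by intraperitoneal injection on consecutive days, including those at 0 w and those of the B6 strain. No engineered genetic change is named, but the article describes the DBA/2 strain as defective in complement C5. The 9 w samples came from mice that had survived to that week, so the mice that died earlier are not in the comparison, and the article gives the age of the mice only as a range. RNA was taken from the leukocytes of whole blood on a retaining filter, although the labels of the treatment call the cells PBMC. The 2 samples of each time are labelled as biological replicates, and the whole series holds 19 arrays in 10 groups of strain and week, 8 of 2 samples and 2 of 1 sample.

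The arrays were 1-color Agilent whole mouse genome arrays. Values below are scaled signals, for which the 75th percentile of the bright probes of each array was set to 1000, and changes are log2 differences between group means with their SE, n = 2 against 2 throughout. A probe was called when the adjusted p of a limma fit over all 18 samples was below 0.05 and both 9 w samples lay beyond both 0 w samples. "Rose" and "fell" are used only of called probes. Signals of different genes are not compared, because probes differ in brightness.

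Of 22831 tested probes, 3040 were called higher at 9 w, or 13.3%, and 3270 were called lower, or 14.3%. The median change over all tested probes was −0.03. Among the probes called higher, 2528 were well above background on all 4 arrays, 951 changed at least 2-fold and 207 at least 4-fold. Among those called lower the corresponding counts were 2753, 531 and 42. Calls of at least 2-fold were thus more often rises than falls, although falls were the more numerous over all calls. With another background correction (normexp), the median of all probes moved to 0.77, and 2043 probes were called higher and 390 lower, so that 84.0% of the calls were rises in place of 48.2%. Taken relative to that median, normexp gave 247 rises and 1398 falls. When the fit was restricted to the 4 arrays, no probe passed the adjusted threshold in limma and 6384 passed at an unadjusted p below 0.05.

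The second 9 w sample stood apart. It held 1187 spots that the scanner software marked as outliers, against 64 to 180 on the other 18 arrays, and these spots were left out. Between the 9 w samples, 797 probes were over 4-fold higher in replicate 2 and 167 were over 4-fold lower. Between the 0 w samples these counts were 258 and 92. Over the 11536 probes well above background in all samples, the robust SD of the difference between the samples of a group was 0.187 at 9 w and 0.154 at 0 w. It was 0.139 between 2 arrays of the same B6 RNA. Over the same probes, 3.22% differed over 2-fold at 9 w, 2.49% at 0 w and 0.711% between the repeated arrays. On these probes both DBA/2 pairs thus differed more than the repeated arrays did. The B6 0 w pair, 1 sample of which is a mean of 2 arrays, differed less, at 0.347%. The p values rest on a spread per probe pooled over all groups of the 18 samples, which may be technical, and not on the 9 w and 0 w pairs alone. Over all tested probes the SD of the difference was 0.825 in the 9 w pair, 0.581 in the 0 w pair and 0.565 between the repeated arrays. The 0 w pair was thus near the repeated arrays, and the p values may understate the spread at 9 w. The 9 w samples lay on slides 3 and 6 and the 0 w samples on slides 2 and 5. All DBA/2 samples of 0 w, 2 w, 4 w and 8 w lay on slides 2 and 5, so slide and 9 w cannot be told apart within the DBA/2 samples, and a fit over all samples with the slide as a random block gave 3078 rises and 3356 falls. Without 9 w replicate 2 the calls were 2583 rises and 2103 falls, and without 0 w replicate 1 they were 2328 and 1837.

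**Figure D1:**
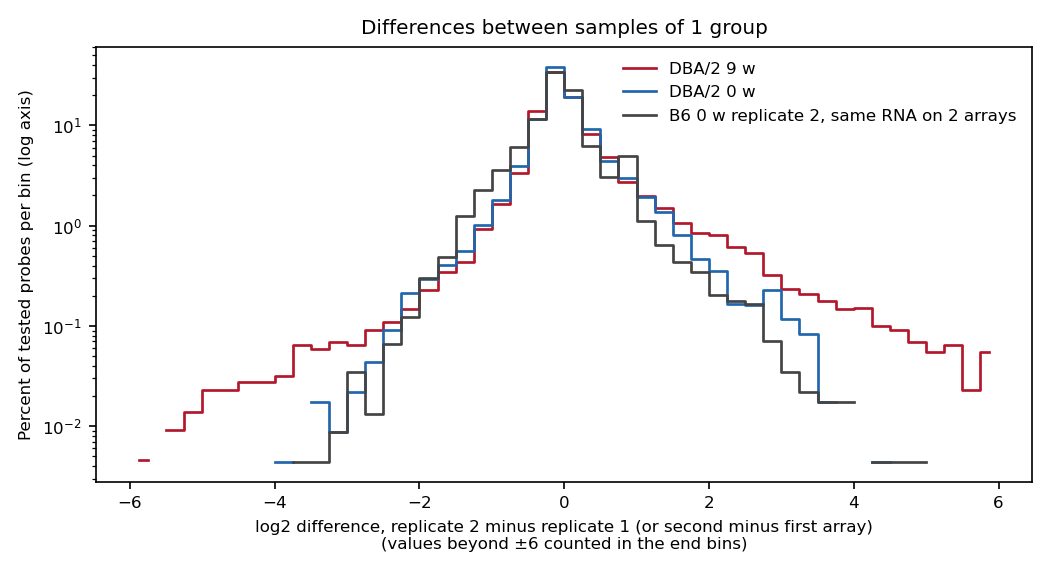
The percent of tested probes (log axis) is plotted in bins of the log2 difference between the samples of a group, for DBA/2 9 w, for DBA/2 0 w and for 1 B6 RNA on 2 arrays. The 9 w pair has a longer tail on the side where replicate 2 is higher, with 797 probes over 4-fold against 258 in the 0 w pair.

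Blood leukocytes are a mixture. Neutrophils and monocytes are short-lived phagocytes that the marrow releases in larger numbers during inflammation. They carry pattern receptors of fungal β-glucan and mannan, such as dectin-1 and dectin-2. T and B lymphocytes recirculate between blood and lymphoid organs. Type I interferons and interferon-γ act through STAT and IRF factors on short promoter elements, among them the interferon-stimulated response element (ISRE). In bulk RNA scaled per array, fewer cells of a type, less RNA per cell and more RNA from other cells cannot be told apart. This holds for every marker list below.

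The arrays carried the signal of leukocytes at both times. Ptprc, which encodes the leukocyte common antigen CD45, measured 11100 and 10400 at 9 w and 10100 and 10200 at 0 w. Its change of 0.08 ± 0.07 did not pass the test (adjusted p = 0.423). Coro1a, a leukocyte actin regulator, measured 13700 and 14400 at 9 w and 15300 and 13800 at 0 w. Of the 5 defining leukocyte genes only Cd52 was called, and it fell by 0.61 on the log2 scale. Under normexp 1 of these 5 genes fell, and their median was −0.19. Relative to the all-probe median 3 of the 5 fell, with a median of −0.96, so that the level of this reference depended on the processing. A rise that turned negative relative to that median is therefore no separate support for a fall. Of 5 endothelial genes none was called, although their summed signal was 2060 in 9 w replicate 2 against 608 to 711 in the other 3 samples.

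The promoters of 4 interferon-responsive genes that rose are shown because members of the interferon lists moved together at 9 w. They were chosen after their values had been seen. Each line gives the RefSeq window from 250 bases before to 50 bases after the start of the gene, 5′ to 3′ on the strand of the gene, with matches to the ISRE letters (GAAA, any 2 bases, GAAA) on either strand in capitals.
Gbp2, GRCm38.p6 chr3:142620413-142620712, plus strand: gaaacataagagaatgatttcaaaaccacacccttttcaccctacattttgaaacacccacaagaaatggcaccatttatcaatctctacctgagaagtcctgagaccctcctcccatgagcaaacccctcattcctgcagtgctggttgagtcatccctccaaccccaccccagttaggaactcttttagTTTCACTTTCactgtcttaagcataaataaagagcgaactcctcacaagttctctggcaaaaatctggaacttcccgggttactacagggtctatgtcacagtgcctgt
Cxcl10, GRCm38.p6 chr5:92348840-92349139, minus strand: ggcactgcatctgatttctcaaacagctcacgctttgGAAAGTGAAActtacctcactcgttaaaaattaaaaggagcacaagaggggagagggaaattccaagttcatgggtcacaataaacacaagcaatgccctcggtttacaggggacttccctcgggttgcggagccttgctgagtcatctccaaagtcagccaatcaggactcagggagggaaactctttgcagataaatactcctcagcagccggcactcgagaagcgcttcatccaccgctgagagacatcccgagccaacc
Irgm1, GRCm38.p6 chr11:48871371-48871670, minus strand: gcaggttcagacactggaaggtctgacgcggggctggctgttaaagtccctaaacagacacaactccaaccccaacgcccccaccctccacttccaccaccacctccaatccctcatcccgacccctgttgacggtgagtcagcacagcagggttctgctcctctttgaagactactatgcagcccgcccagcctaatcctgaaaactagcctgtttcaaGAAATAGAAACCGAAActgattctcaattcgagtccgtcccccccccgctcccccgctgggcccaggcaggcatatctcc
Ifit1, GRCm38.p6 chr19:34640639-34640938, plus strand: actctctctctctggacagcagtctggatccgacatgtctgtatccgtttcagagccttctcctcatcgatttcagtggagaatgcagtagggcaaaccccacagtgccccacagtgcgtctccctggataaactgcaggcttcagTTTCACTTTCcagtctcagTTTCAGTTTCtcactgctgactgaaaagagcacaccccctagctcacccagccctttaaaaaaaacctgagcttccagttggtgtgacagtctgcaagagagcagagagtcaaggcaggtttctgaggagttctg
The match begins 59 bases before the start in Gbp2 and 213 bases before it in Cxcl10. Irgm1 holds 2 overlapping matches, the first of them 30 bases before the start, and Ifit1 holds 2 that begin 104 and 85 bases before it. The letters occur in 1079 of 27025 genes with such a window, or 3.99%. They occur in 11 of the 17 members of the type I interferon list that rose and had a window, and in 9 of the 17 such members of the interferon-γ list. Among all tested members with a window they occur in 15 of 24 and in 10 of 20, so the members that rose did not stand out from their lists. The letters also occur in both type I members that fell, and in none of 19 neutrophil genes with a window. A match describes letters and not a bound site.

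Interferon-responsive genes were higher at 9 w than at 0 w. Of 34 tested genes of the type I interferon response, 24 rose and 2 fell, with a median change of 0.84. Relative to the median of all probes under normexp, that median was 0.14 and 1 gene was called higher. Oasl2, an antiviral member of the oligoadenylate synthetase family, measured 1410 and 1350 at 9 w against 228 and 188 at 0 w. Its change was 2.74 ± 0.13 (adjusted p = 2.22e-06). Oas2, which makes the 2-5A messenger of RNase L, measured 363 and 340 against 65.9 and 99.6, a change of 2.12 ± 0.51 (adjusted p = 0.0134). Oas3 measured 154 and 135 at 9 w, whereas its 0 w samples were far apart at 59.0 and 10.7. Oasl1 measured 132 and 116 against 51.6 and 41.3. In each of these genes the groups did not overlap, which the call itself requires. Irf7, the factor that amplifies interferon production, measured 285 and 241 against 110 and 97.2, a change of 1.34 ± 0.09 (adjusted p = 1.65e-05). The type I members that fell were Ddx58, the RNA sensor RIG-I, for which another probe was called the other way, and Ifi203.

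Of 28 tested genes of the interferon-γ response, 21 rose and 2 fell, with a median change of 0.70. Relative to the median of all probes under normexp, the median of this list turned to −0.08, with 1 rise and 4 falls. Before the all-probe median was subtracted, the normexp median of the list was 0.69, with 12 rises and 1 fall. Gbp2, a guanylate-binding protein of cell-autonomous defence, measured 1830 and 1610 at 9 w against 419 and 385 at 0 w, a change of 2.09 ± 0.12 (adjusted p = 5.42e-06). Gbp3 measured 638 and 568 against 286 and 284. The chemokine Cxcl10, a T cell attractant, measured 62.4 and 49.5 at 9 w and was not well above background on either 0 w array, so that it was at least 1.62-fold higher (adjusted p = 0.000516). Ifng itself, the cytokine of the list, measured 162 and 154 against 96.4 and 83.8, a change of 0.81 ± 0.12 (adjusted p = 0.00103). Irf1, a transcription factor that interferon-γ induces, changed by 0.97 ± 0.10 (adjusted p = 0.000147), and its change turned negative relative to the median under normexp. The members that fell were Ciita, the master regulator of class II genes, at 938 and 863 against 1910 and 1700, and Irf8.

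Neutrophil, monocyte and macrophage markers were higher at 9 w in most tested members. All 20 tested neutrophil genes rose, with a median change of 1.49, as did 16 of 19 monocyte genes (median 1.14) and 9 of 11 genes of tissue macrophages (median 1.25). In the other myeloid lists 2 of 5 eosinophil genes rose and 1 fell, 1 of 8 basophil and mast cell genes rose and 1 fell, 1 of 9 dendritic cell genes rose and 3 fell, and none of 4 genes of immature granules was called. Il1r2, the decoy receptor of interleukin-1, measured 762 and 808 at 9 w against 85.6 and 84.1 at 0 w, a change of 3.21 ± 0.10 (adjusted p = 6.11e-07). A second, dimmer probe of Il1r2 measured 202 and 172 at 9 w and was at least 5.43-fold higher. The granule protein Ngp measured 416 and 472 against 83.4 and 86.5, a change of 2.38 ± 0.25 (adjusted p = 0.000136). Hdc, the enzyme that makes histamine, measured 1140 and 1150 against 328 and 272. S100a8, a subunit of calprotectin, measured 16200 and 15700 against 5760 and 5560. None of these pairs overlapped, as a call requires. The summed signal of the 20 neutrophil genes was 341000 and 279000 at 9 w against 115000 and 113000 at 0 w. Relative to the median under normexp, the neutrophil median was 0.42 with 3 of the 20 genes called, the monocyte median was 0.19 with none of 19 called, and the macrophage median was 0.375 with 1 of 11 called.

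Among the monocyte genes, Cd14, the lipopolysaccharide co-receptor, measured 214 and 228 at 9 w against 45.2 and 49.0 at 0 w, a change of 2.23 ± 0.14 (adjusted p = 8.16e-06). The fibronectin gene Fn1 measured 277 and 240 against 81.3 and 58.0. Csf1r, the receptor of the macrophage growth factor, measured 622 and 662 against 242 and 231, a change of 1.44 ± 0.13 (adjusted p = 5.54e-05). Cx3cr1, Ms4a7 and Ace, which mark the patrolling monocytes, were the members of the monocyte list that were not called. Among the macrophage genes, Hmox1, which degrades heme, measured 522 and 569 against 208 and 205, and Slc40a1, the iron exporter ferroportin, measured 1420 and 1330 against 574 and 488. Cd5l rose as well, but its 9 w samples were far apart at 299 and 622.

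Genes of Fc and paired receptors rose in 16 of 18 tested members, with a median change of 1.23. The median was 0.19, with 2 members called higher, relative to the median under normexp. Fcgr1, the high-affinity IgG receptor, measured 554 and 557 at 9 w against 72.2 and 71.8 at 0 w, a change of 2.95 ± 0.10 (adjusted p = 6.11e-07). Cd300lf measured 4590 and 4780 against 1400 and 1420, and Trem1, an amplifier of myeloid activation, measured 219 and 230 against 69.7 and 58.6.

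**Figure D2:**
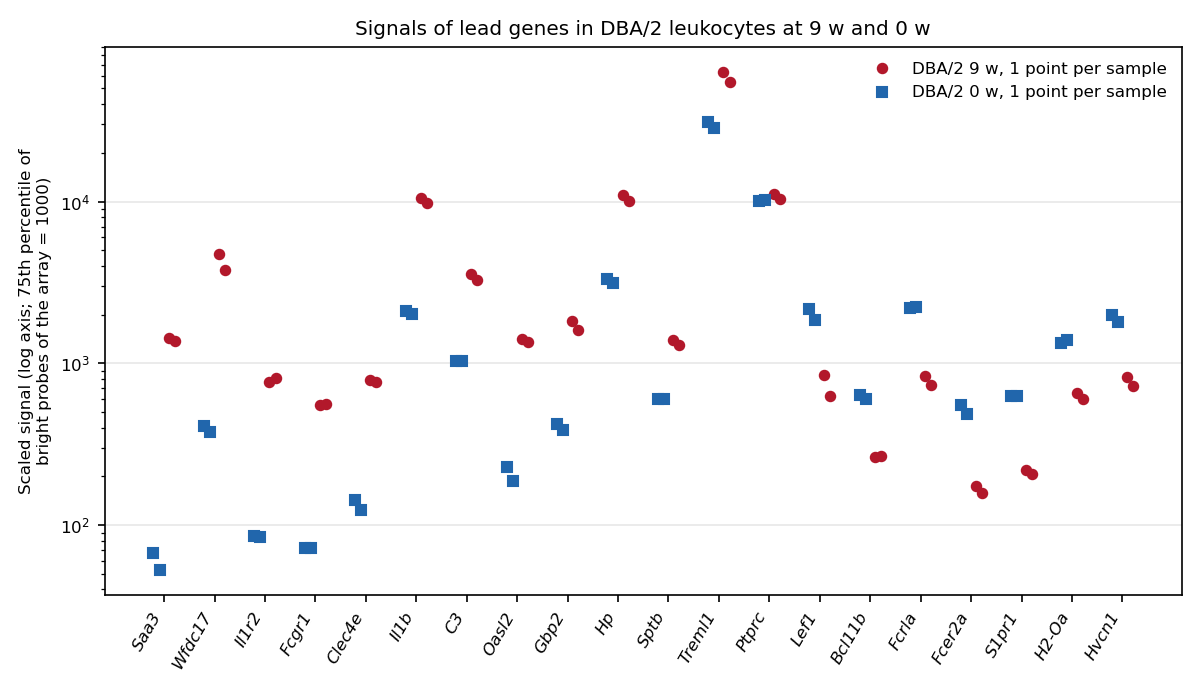
Scaled signals (log axis) of 20 genes are plotted for each of the 2 DBA/2 samples at 9 w (circles) and at 0 w (squares). The groups do not overlap in any gene shown, which the call requires of every called gene. The gap is narrowest for Ptprc, which did not pass the test.

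Lymphoid markers moved the other way. None of 26 tested T cell genes rose and 22 fell, with a median change of −0.75, and none of 23 B cell genes rose and 21 fell, with a median of −0.95. Lef1, a transcription factor of naive T cells, measured 843 and 632 at 9 w against 2180 and 1860 at 0 w, a change of −1.47 ± 0.14 (adjusted p = 9.56e-05). Bcl11b, which fixes T cell identity, measured 262 and 269 against 635 and 604. Tcf7 measured 806 and 713 against 1670 and 1500, and Trat1, a T cell receptor adaptor, 154 and 159 against 371 and 317. Cd3e, Cd4 and Lat were among the T cell genes that were not called. The summed signal of the T cell list was 20000 and 18500 at 9 w against 33400 and 32900 at 0 w, with 1 value missing.

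Fcrla, an Fc receptor-like protein of B cells, measured 832 and 737 at 9 w against 2200 and 2220 at 0 w, a change of −1.497 ± 0.08 (adjusted p = 4.19e-06). Fcer2a, the low-affinity IgE receptor CD23 of mature B cells, measured 175 and 157 against 551 and 486, a change of −1.64 ± 0.12 (adjusted p = 2.54e-05). Pax5, the factor of B cell identity, measured 230 and 112 against 468 and 430. Blk was not well above background at 9 w and was at least 1.83-fold lower. The sums over the B cell list were 48900 and 46600 at 9 w against 94500 and 90600 at 0 w. Under normexp itself the T and B cell medians were −0.376 and −0.434, so the direction held, with 12 and 11 members called lower and 1 T cell gene called higher. Relative to the all-probe median they were −1.15 and −1.21, with 13 and 12 members called lower. That setting also gave 1398 falls and 247 rises over all probes and moved the median of the leukocyte genes to −0.96. Falls under it are therefore no separate support for the direction.

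Class II genes, which B cells and dendritic cells express to present antigen to helper T cells, followed the B cell genes in direction, with 9 of 10 tested members lower and a median of −0.78. H2-Oa, a modulator of peptide loading, measured 655 and 605 at 9 w against 1340 and 1400 at 0 w and fell by 1.12 ± 0.09 (adjusted p = 2.78e-05). H2-DMb1 measured 2400 and 2040 against 4440 and 3880. In class I, which all nucleated cells express, 7 of 19 genes rose and none fell. H2-D1 measured 21900 and 22200 against 11800 and 11400, and B2m, the light chain of class I, measured 53800 and 48500 against 32000 and 31700. The class I direction depended on the processing, since the median of 0.11 turned to −0.02 with quantile normalization. It was −0.62 relative to the median under normexp, where the leukocyte genes also had a median of −0.96. Before the all-probe median was subtracted, the normexp median of class I was 0.155, with 1 rise.

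Several receptors of the recirculation of lymphocytes fell. S1pr1, by which lymphocytes leave lymphoid organs, measured 220 and 207 at 9 w against 630 and 631 at 0 w, and fell by 1.56 ± 0.08 (adjusted p = 3.72e-06). S1pr1 was counted in the chemokine receptor list, although it is not itself a chemokine receptor. The chemokine receptors of the list that fell were Cxcr5, Ccr7, Ccr6 and Ccr9, whereas Ccrl2, Cxcr2, Ccr2, Cxcr6 and Cxcr3 rose. Thus 5 of 18 tested members were called in each direction, S1pr1 among the falls. The rises of Cxcr6 and Cxcr3 turned negative relative to the median under normexp. Cxcr2, by which neutrophils are recruited, measured 2860 and 2330 against 934 and 871, and Ccr2, by which monocytes leave the marrow, measured 1570 and 1500 against 554 and 567. In the TNF receptor family, Ltbr and Tnfrsf1a rose, at 1120 and 1040 against 374 and 328 and at 1220 and 1050 against 442 and 410. Tnfrsf13b and Tnfrsf13c, which bind the B cell survival factor BAFF, fell, at 258 and 239 against 479 and 478 and at 587 and 548 against 1020 and 964.

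Natural killer and cytotoxic genes showed no common direction, with 4 rises and 4 falls among 20 tested members and a median of −0.08. Klrd1, the CD94 chain of NK receptors, measured 1200 and 1150 at 9 w against 1990 and 1840 at 0 w, whereas Cd244a measured 972 and 1200 against 497 and 512. Plasma cell genes were mostly dim. Of 9 tested members 4 fell and 1 rose, and Mzb1 measured 759 and 723 against 1500 and 1640.

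**Figure D3:**
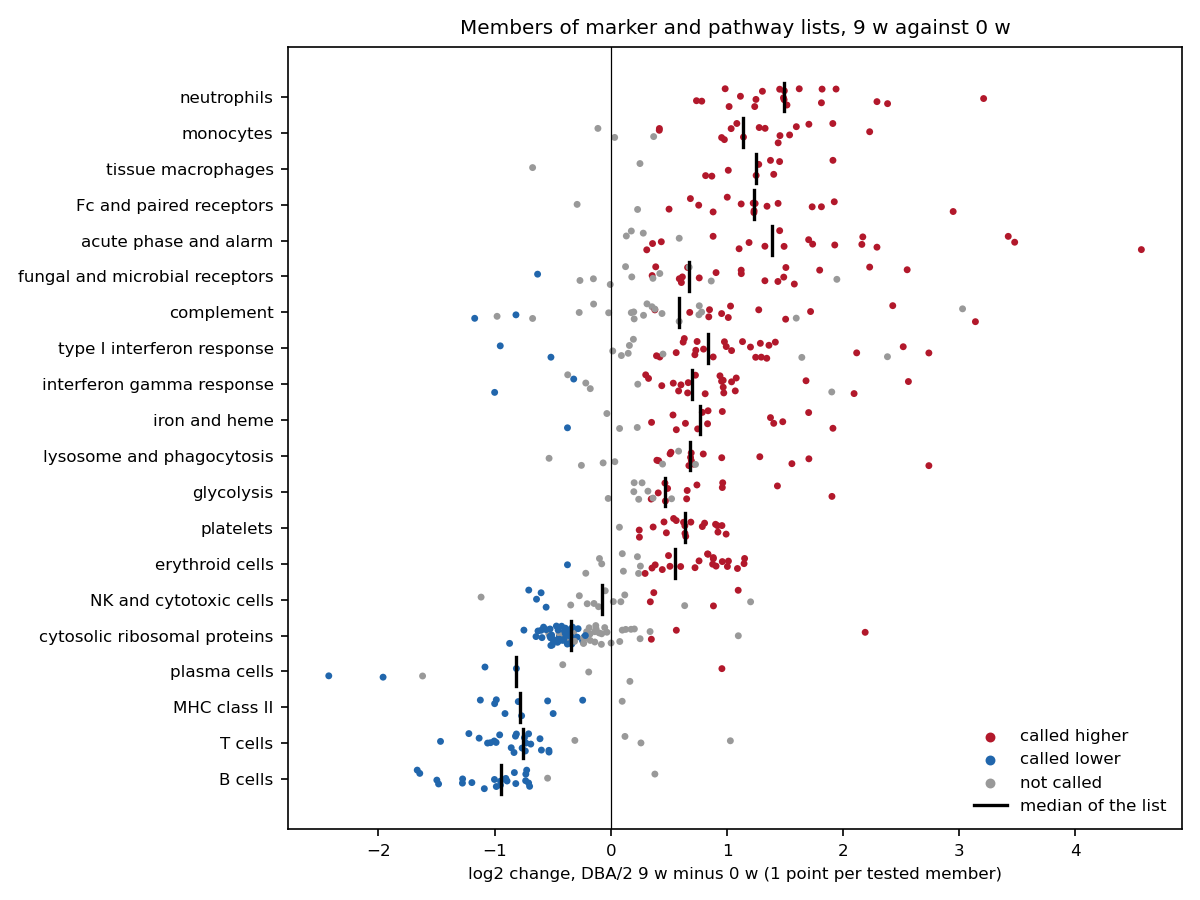
The log2 change at 9 w against 0 w is plotted for every tested member of 20 lists, red when called higher, blue when called lower and gray otherwise, with the median of each list as a vertical bar. The myeloid lists lie to the right, up to a median of 1.49 for neutrophils, and the T cell, B cell and class II lists lie to the left, down to a median of −0.95.

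Acute phase and alarm genes held several of the largest rises. Of 22 tested members 18 rose and none fell, with a median of 1.39. Saa3, a serum amyloid A made by inflamed macrophages, measured 1440 and 1380 at 9 w against 67.5 and 52.7 at 0 w, where only 1 of the 2 arrays was well above background. Its change of 4.57 ± 0.48 was the largest fitted rise that the naming rule admitted (adjusted p = 0.000147), and its probe lies at chr7:46580703-46580762 of mm8. Wfdc17 measured 4730 and 3750 against 408 and 379, a change of 3.42 ± 0.15 (adjusted p = 1.68e-06). Hp, the hemoglobin-binding haptoglobin, measured 11000 and 10100 against 3310 and 3140, a change of 1.70 ± 0.08 (adjusted p = 1.69e-06). Steap4, a metalloreductase, was at least 3.01-fold higher, and Lcn2, the siderophore-binding lipocalin, at least 4.13-fold higher. In all of these genes the groups were separate, as a call requires. Relative to the median under normexp 7 members of the list were called higher.

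Of 29 tested receptors and adaptors of fungal and microbial recognition, 18 rose and 1, Malt1, fell, with a median of 0.67. The list had a median of 0.30, with 3 rises and 1 fall, relative to the median under normexp. Clec4e, the C-type lectin mincle, measured 791 and 765 at 9 w against 142 and 124 at 0 w, a change of 2.55 ± 0.11 (adjusted p = 1.69e-06). Tlr2, the Toll-like receptor of lipoproteins and yeast walls, measured 635 and 636 against 187 and 178, a change of 1.80 ± 0.07 (adjusted p = 7.68e-07). Clec7a, the β-glucan receptor dectin-1, measured 6360 and 5850 against 2180 and 2120, a change of 1.51 ± 0.08 (adjusted p = 3.44e-06). Casp4, the inflammatory caspase that senses lipopolysaccharide, measured 2060 and 1610 against 616 and 603. Clec4n, which encodes the mannan receptor dectin-2, measured 97.2 and 85.6 at 9 w and was not well above background at 0 w. Its change did not pass the test (adjusted p = 0.0516).

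Cytokine genes were called in both directions, 6 higher and 4 lower among 21 tested. Il1b, the product of the inflammasome, measured 10500 and 9770 at 9 w against 2120 and 2010 at 0 w, a change of 2.30 ± 0.08 (adjusted p = 7.80e-07). Tnfsf14, the TNF family ligand LIGHT, measured 1410 and 1370 against 508 and 510. Il6 was called lower, but none of its 4 spots was well above background, so no fold is given. The lymphoid cytokines Lta and Ltb also fell, but the change of Lta turned to 0.02 relative to the median under normexp.

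Complement genes rose in 12 of 33 tested members and fell in 2, with a median of 0.59, while 9 members did not stand well above background in any of the 4 samples. With normexp, relative to the median of all probes, the list median was 0.32 and 3 members were called higher. The list was drawn up with the interest of the study in this system known. Cfb, the protease of the alternative pathway, measured 226 and 206 at 9 w, was not well above background at 0 w and was at least 6.28-fold higher (adjusted p = 7.44e-07). C3, at which all pathways meet, measured 3550 and 3270 against 1030 and 1040, a change of 1.72 ± 0.07 (adjusted p = 1.13e-06). Fcna, a lectin pathway ficolin, measured 78.6 and 68.9 against 35.9 and 18.7. The members that fell were Cd55, the decay-accelerating factor, at 309 and 297 against 571 and 498, and Mbl2, which was not well above background at 9 w and whose change turned to 0.06 relative to the median under normexp. For C4b the spot of 9 w replicate 2 was left out as an outlier, and the remaining 382 against 126 and 127 could not be called. Hepatocyte genes, the main source of plasma complement, were low at both times. Their summed signal was 1470 and 1520 at 9 w against 1560 and 2470 at 0 w, and 8 of 15 members did not stand well above background in any of the 4 samples.

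Of the 44 tested genes that the article discusses, 23 rose and 3 fell (Brd8, Cd55 and Mbl2). Since the study chose them on these samples, the count is no independent evidence of a direction. Cebpb, a factor of myeloid inflammation, measured 3100 and 2570 against 1200 and 1060, and Nupr1, a stress-induced regulator, measured 432 and 481 against 175 and 157. Spi1, which encodes PU.1, was well above background on 1 of the 2 arrays at 9 w and on none at 0 w, and was at least 1.37-fold higher. Tbx20 rested on 9 w replicate 2, at 677 against 45.8 in replicate 1.

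Of 22 lysosome and phagocytosis genes 15 rose and none fell, of 20 matrix proteases and inhibitors 15 rose and none fell, and of 15 eicosanoid genes 11 rose and none fell. The lysosome median of 0.68 turned to −0.26 with 1 rise and 1 fall relative to the median under normexp, where no matrix or eicosanoid gene was called (medians 0.07 and 0.05). Before the all-probe median was subtracted, the normexp median of the lysosome list was 0.51, with 6 rises and no fall. Ctsl, the lysosomal cathepsin L, measured 580 and 568 at 9 w against 188 and 164 at 0 w, and Adam8 measured 4040 and 4200 against 1580 and 1480. Mmp9, the gelatinase of neutrophil granules, measured 353 and 315 against 140 and 130. Cd63, a granule and lysosome membrane protein, measured 1280 and 1310 against 454 and 426. Pla2g7, which inactivates platelet-activating factor, measured 1870 and 1760 against 744 and 742. In the alternative activation list 7 of 10 genes rose, and 1 did so relative to the median under normexp. Clec10a, a galactose lectin of macrophages, measured 686 and 624 against 156 and 154, a change of 2.08 ± 0.11 (adjusted p = 3.59e-06). Arg2 measured 398 and 378 against 104 and 103.

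Of 13 genes of the oxidative burst and its detoxification 9 rose and 3 fell. Gpx1, which removes peroxides, measured 274000 and 260000 at 9 w against 121000 and 114000 at 0 w, a change of 1.19 ± 0.07 (adjusted p = 9.56e-06). Hvcn1, the proton channel of phagocytes and B cells, measured 826 and 724 against 1980 and 1810 and fell by 1.29 ± 0.11 (adjusted p = 4.58e-05). The oxidase subunit genes Ncf1 and Rac2 also fell, while Cybb, Cyba and Ncf4 rose, so the subunits of the enzyme were not called in 1 direction, and these 3 rises turned negative relative to the median under normexp.

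Platelet genes rose in 19 of 20 tested members, with a median of 0.64, and erythroid genes rose in 21 of 30 and fell in 1, with a median of 0.555. Treml1, a platelet granule receptor, measured 63300 and 55200 at 9 w against 31200 and 28300 at 0 w, a change of 0.99 ± 0.10 (adjusted p = 0.000136). Itga2b and Gp1bb, the adhesion receptor subunits, measured 9120 and 7190 against 4480 and 4070 and 4910 and 4890 against 2640 and 2540. Sptb, the erythrocyte β-spectrin, measured 1400 and 1290 against 604 and 605, a change of 1.15 ± 0.09 (adjusted p = 3.04e-05). Rhag, the ammonium transporter of red cells, measured 351 and 361 against 170 and 165. Under normexp the medians stayed positive, at 0.34 and 0.59 with 5 and 10 rises, but lay below the median of 0.77 over all probes. Relative to that median they turned to −0.43 and −0.18 with no member called higher. The direction of both lists thus depended on whether the all-probe median was subtracted. Under quantile normalization 10 platelet and 13 erythroid genes rose.

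Glycolytic genes rose in 12 of 20 members and none fell, but their median of 0.47 turned to −0.25 relative to the median under normexp, with 1 rise. Before the all-probe median was subtracted, the normexp median of the list was 0.52, with 5 rises. Slc16a3, the lactate exporter, measured 1140 and 1190 at 9 w against 409 and 453 at 0 w. Gapdh, often taken as a reference gene, measured 6680 and 7070 against 4310 and 4440, a change of 0.65 ± 0.07 (adjusted p = 0.00021), which turned to −0.34 relative to the median under normexp. Ribosomal protein genes fell in 46 of 81 members and rose in 3, with a median of −0.34. Rps19 measured 22200 and 19800 against 41400 and 35400. Among the 3 that rose was Rpl21, whose 9 w samples were far apart at 18300 and 128000. Respiratory chain genes fell in 24 of 87 members and rose in 9. In the cell cycle list 6 of 38 rose and 6 fell, shares near the 13.3% and 14.3% of all probes. Ccna2, a cyclin of S phase and mitosis, measured 2280 and 2060 against 1100 and 1030, whereas Mcm7, a subunit of the replicative helicase, measured 929 and 847 against 1470 and 1460.

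Of 28 immediate early genes 15 rose and 2 fell, and of 20 heat shock genes 8 rose and 2 fell. Their medians of 0.41 and 0.48 turned to −0.34 and −0.21 relative to the median under normexp, with no rise and 1 rise. Before the all-probe median was subtracted, their normexp medians were 0.43 and 0.565, with 7 and 8 rises and with no fall and 1 fall. The summed signals, in which bright probes weigh most, stood apart in 9 w replicate 2. They were 738000 against 307000 in replicate 1 for the immediate early genes and 375000 against 136000 for the heat shock genes. Fos, Atf3, Hspa1a, Dnajb1 and Hsph1 were not higher in replicate 2, as their values below show. Fos and Atf3 measured 212 and 193 against 40.8 and 40.5 and 241 and 231 against 52.0 and 43.9, and at 0 w only 1 of the 2 arrays was well above background for each. Hspa1a, the inducible Hsp70, measured 355 and 320 at 9 w and was at least 9.46-fold higher (adjusted p = 1.99e-05). Dnajb1, its co-chaperone, measured 4150 and 3720 against 1780 and 1660, and Hsph1 measured 1970 and 1880 against 885 and 902. Hsp90b1 and Hspe1, chaperones of the endoplasmic reticulum and the mitochondria, fell. Nfil3, which the clock list and myeloid cells share, measured 643 and 751 against 172 and 155, a change of 2.09 ± 0.11 (adjusted p = 3.44e-06).

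By fitted change, the measure of the naming rule, the 12 leading rises were those of Saa3, Entpd3, Col18a1, Acod1, Hoxb9, Ms4a6d, Hspa1a, Il1r2, Krt20, Steap4, Wfdc17 and Tfcp2l1. Of these, only Wfdc17 and Hoxb9 were well above background on both 0 w arrays and Saa3 on 1, so that the order has no meaning for the rest. Fcgr1, measured at both times, changed 7.71-fold, which is above the bounds of several of them. Entpd3, which hydrolyzes extracellular nucleotides, measured 181 and 182 at 9 w and was at least 5.28-fold higher. Acod1, which makes itaconate in activated macrophages, measured 181 and 332 and was at least 7.13-fold higher, and Ms4a6d, at 288 and 253, was at least 7.86-fold higher. The 9 w samples were far apart in several others, with Col18a1 at 71.5 and 354, Hoxb9 at 767 and 3120 and Krt20 at 258 and 44.9. The 12 leading falls by fitted change were those of Enam, Alb, Pcp4, Camk4, Myom2, Smyd5, Kcnmb4, Kidins220, Tceanc2, Tigd5, Nup107 and Tube1. None of them was well above background on either 9 w array, and their bounds ran from at least 1.28-fold lower for Tube1 to at least 3.32-fold lower for Enam, so that their order has no meaning. Among named genes well above background on all 4 arrays, Fcer2a was 3.13-fold, S1pr1 2.96-fold and Fcrla 2.82-fold lower. Alb, the liver albumin, measured 66.8 and 120 at 0 w and was at least 2.26-fold lower at 9 w.

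The 9 w samples were also set against those of 2 w, 4 w and 8 w. The means compared leave out the 0 w samples, although these samples enter the spread of the same fit. Against the mean of these weeks, 1461 probes were called higher (6.4%) and 925 lower (4.05%), with both 9 w samples outside the range of the 6 samples. With the slide as a random block these counts were 1137 and 741. Against 8 w alone, 2412 were called higher (10.6%) and 1545 lower (6.77%). The share of rises in these comparisons depended on the scaling. With the percentile taken over all probes, 33.9% of the calls against the mean of the weeks were rises in place of 61.2%, and 34.9% against 8 w in place of 61.0%. With normexp the shares were 93.3% and 81.5%, and with quantile normalization 40.7% and 40.2%.

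Neutrophil genes were lower at 9 w than at 8 w in 17 of 20 tested members, with a median of −1.03. Ngp measured 1650 and 1510 at 8 w and 416 and 472 at 9 w, a difference of −1.83 (adjusted p = 0.00142). Genes of the interferon-γ response were lower than at 8 w in 14 of 28 members and those of the type I response in 17 of 34. Gbp2 measured 6990 and 5860 at 8 w and 1830 and 1610 at 9 w, a difference of −1.90 (adjusted p = 5.09e-05). C3 measured 6040 and 5820 at 8 w against 3550 and 3270 at 9 w. Of the NK and cytotoxic genes 10 of 20 were lower than at 8 w, and Klrd1 measured 1860 and 1700 at 8 w. In the interferon lists 2 and 3 members were higher than at 8 w.

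Some genes lay outside the range of 2 w, 4 w and 8 w, a comparison in which 9 w and slide cannot be told apart. Of 30 erythroid genes 14 were above the range of 2 w, 4 w and 8 w, and none was below it. Of 20 heat shock genes 7 were above it, and Hspa1a measured 65.3 and 71.7 at 8 w against 355 and 320 at 9 w (difference from 8 w of 2.30, adjusted p = 0.000848). Gpx1 measured 157000 and 146000 at 8 w and 274000 and 260000 at 9 w. Of 26 T cell genes 13 were below the range of those weeks, as were 9 of 23 B cell genes. S1pr1 measured 369 and 358 at 8 w and 220 and 207 at 9 w (difference of −0.77, adjusted p = 0.000479). Fcrla measured 1110 and 1200 at 8 w and 832 and 737 at 9 w.

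**Figure D4:**
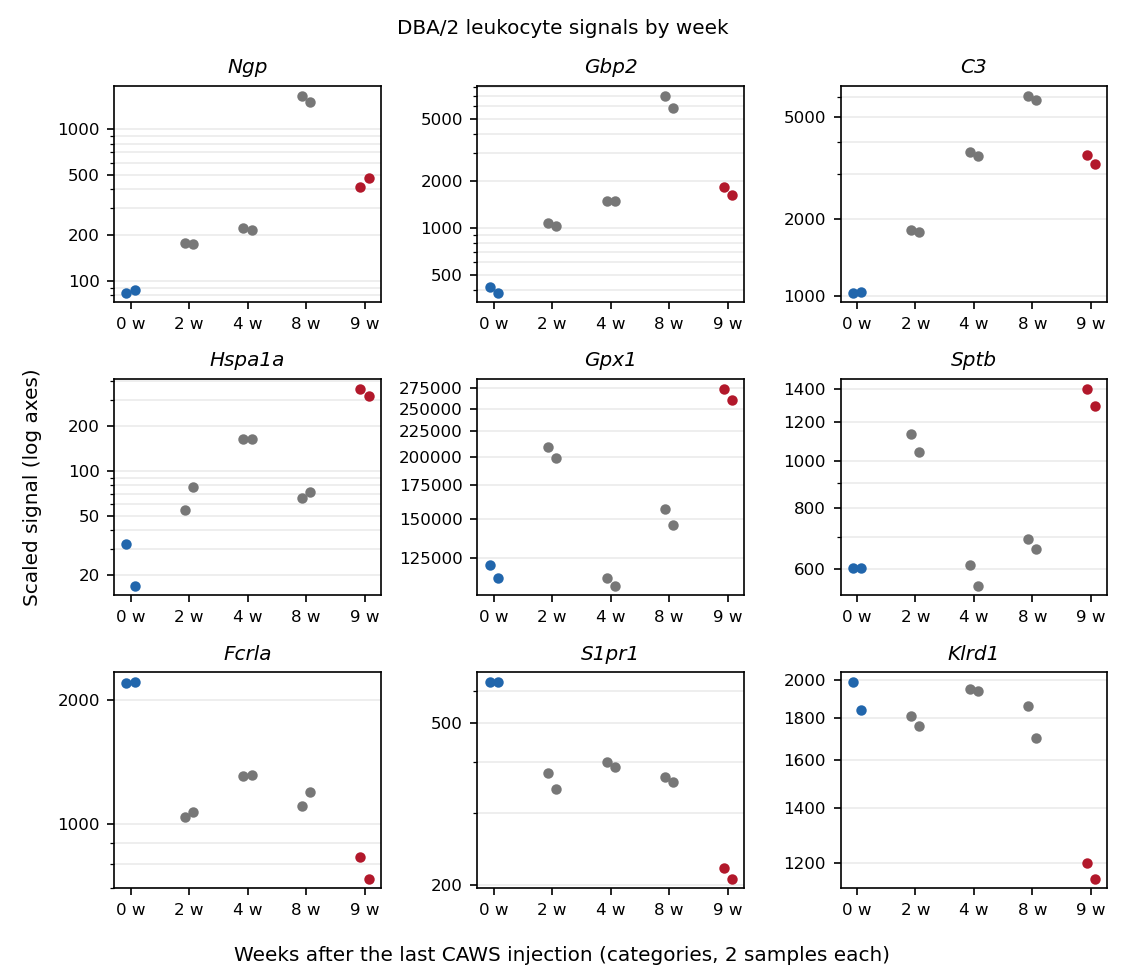
Scaled signals (log axes) of 9 genes are plotted in each DBA/2 sample, with the weeks 0, 2, 4, 8 and 9 as categories of 2 samples each. Ngp, Gbp2 and C3 are highest at 8 w and lower at 9 w, Hspa1a, Gpx1 and Sptb are highest at 9 w, and Fcrla, S1pr1 and Klrd1 are lowest at 9 w.

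Whether the change at 9 w differed from that in B6 mice was tested in the same fit, although B6 mice at 9 w are 1 sample that is assumed to vary like the others. The DBA/2 change minus the B6 change was positive for 1449 probes (6.35%) and negative for 1374 (6.02%). A positive difference does not require a rise in DBA/2 mice. It was called in 14 of 15 hepatocyte genes, whose median change in DBA/2 mice was 0.003. Of the B cell genes 16 of 23 had a lower change in DBA/2 mice and none a higher one, as had 7 of 10 class II genes. Fcer2a changed by −1.64 in DBA/2 mice and its strain difference was −1.503 (adjusted p = 0.0017). Of the type I interferon genes 17 of 34 had a higher change in DBA/2 mice and 1 a lower one. The summed signal of this list at 0 w was 152000 and 145000 in DBA/2 mice against 267000 and 253000 in B6 mice. At 9 w it was 262000 and 204000 in DBA/2 mice and 229000 in the B6 sample, with 3 values of the list missing. By this sum, in which bright probes weigh most, DBA/2 mice started from a lower level at 0 w than B6 mice. Whether this holds for each member was not tested. Oasl2 measured 1860 in the B6 sample at 9 w and 1240 and 1200 in those at 0 w, and its strain difference was 2.13 (adjusted p = 0.000384). The B6 0 w samples held more hepatocyte signal than the B6 9 w sample and the DBA/2 samples of 9 w and 0 w. The 15 hepatocyte genes summed to 104000 and 105000 in them, against 1300 in B6 mice at 9 w and at most 2470 in the 4 DBA/2 samples. The part of this signal in the strain difference of genes that the liver also makes, such as C3, Cfb and Hp, was not tested.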

How the data were processed

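RNA of blood leukocytes from 18 samples was hybridized by the authors to 1-color Agilent whole mouse genome arrays. The deposited scanner files give the processed signal intensity of each spot from Agilent Feature Extraction 9.5.3.1 (submitters' processing notes), after its background correction. The deposited value table gives the authors' processed signals on a linear scale, averaged over spots, and was used as an alternative only.

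Spots marked as outliers by the scanner software and control spots were dropped, spots of a probe were averaged, and log2 intensities were scaled to the 75th percentile of 11536 probes that every array placed well above background. The B6 RNA on 2 arrays was averaged. The test covered 22831 of 41174 probes, those placed well above background by 2 or more of the 18 samples. Group means came from a limma fit (version 3.58.1, R 4.3.3) with residual df 8 and prior df 1.37, with Benjamini-Hochberg adjustment. The study names no test. Scripts were tested on simulated data. Of the tested probes, 944 lacked a value in the 4 samples, 916 of them in 9 w replicate 2, and could not be called. A list gene with several probes was represented by that with the highest mean signal over the samples, and the leading rises and falls by the probe ranked.

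Named genes were the 12 largest fitted rises and falls among called probes with a gene symbol that were well above background on both arrays of the higher group, up to 4 called members of each list with the largest change, the brightest tested members of lists with fewer than 2 calls, and genes the article names. Other genes were named after their values were seen, and some genes are not reported here. The members and lists were chosen with earlier results of these data known. Where a gene was not well above background at 1 time, the fold is a bound against the lowest signal well above background. Alternatives were another background correction (normexp with an offset of 50), scaling, filter, block, array weights and leaving out each sample.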

Additional observations from a re-analysis of the deposited data

Results flagged for a closer look

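For 71 of the 138 genes named with a change, the change at 9 w differed between DBA/2 and B6 mice in the interaction term of the limma fit (adjusted p below 0.05), each gene taken by its brightest probe. In 12 of them the signal stayed near background in every sample of at least 1 of the 4 groups, so no size is given. Of the other 59, the difference was positive, that is higher in DBA/2 mice, in 36 and negative in 23. It is given below as DBA/2 change minus B6 change on the log2 scale. The B6 change rests on 1 sample at 9 w, and its 0 w samples held hepatocyte signal summing to 104000 and 105000 against 1300 at 9 w, whose part in these differences was not tested.

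In the complement and acute phase genes the difference was 3.16 for C3, −1.15 for Cd55, 1.11 for Hp and 1.01 for Wfdc17. In the interferon-responsive genes and Ifng the difference was 2.13 for Oasl2, 2.12 for Irf7, 1.85 for Ifng, 1.64 for Gbp2, 1.01 for Oasl1, 0.71 for Ifit1, 0.70 for Gbp3, 0.63 for Irgm1, −1.35 for Ifi203 and −0.90 for Ciita. In the myeloid genes the difference was 1.38 for Fcgr1, 1.87 for Il1r2, 1.72 for Fn1, 1.32 for Trem1, 1.27 for Csf1r, 1.20 for Clec10a, 0.65 for Cebpb, 0.48 for Tlr2, 0.61 for Cd63, 2.43 for Ctsl, 0.75 for Hmox1, 0.94 for Nfil3, −0.80 for Ncf1 and −0.55 for S100a8. In the lymphoid, class II and BAFF receptor genes the difference was −1.503 for Fcer2a, −1.496 for Fcrla, −1.22 for Mzb1, −1.39 for H2-Oa, −1.28 for H2-DMb1, −1.03 for Lef1, −0.69 for Bcl11b, −0.85 for Tnfrsf13b, −0.78 for Tnfrsf13c, −0.80 for Cd52, −0.69 for Hvcn1 and −1.03 for Malt1. In the receptors, ligands and class I genes the difference was −1.20 for S1pr1, −0.999 for Cxcr5, −0.66 for Ccr7, −0.70 for Ccr6, 2.14 for Cxcr6, 1.09 for Cxcr3, 0.65 for Cd244a, 0.95 for Ltbr, 0.76 for Tnfsf14 and 1.05 for H2-D1. In the platelet, erythroid, chaperone, ribosomal and cell cycle genes the difference was 1.09 for Itga2b, 1.31 for Sptb, 0.95 for Rhag, 0.66 for Gpx1, 0.73 for Hsph1, −0.71 for Rps19, 0.80 for Ccna2 and −0.53 for Mcm7. It was 3.75 for a brighter probe of Col18a1 than the one among the leading rises.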

How the results depend on the processing

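Counts are given as rises and falls at 9 w. Against 0 w, 3040 and 3270 became 2022 and 1705 without the filter on dim probes, 662 and 311 with a 2-fold change asked between every pair of samples, and 0 and 0 with the 4 arrays alone, where limma left 6384 probes at an unadjusted p below 0.05. With normexp 390 probes fell. Leaving out 1 sample gave 2081 to 3518 rises and 1837 to 2925 falls, with 2103 falls without 9 w replicate 2 and 1837 without 0 w replicate 1.

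Against the mean of 2 w, 4 w and 8 w, 1461 and 925 became 7027 and 502 with normexp, 891 and 1734 with the percentile over all probes, 667 and 272 without the filter, 896 and 492 with DBA/2 arrays only, and 727 and 375 with array weights. Quantile normalization gave 1451 falls, and leaving out 1 sample 957 to 2395 rises and 318 to 1149 falls, the 318 without 9 w replicate 2. Against 8 w, 2412 and 1545 became 1451 and 2709 with the percentile over all probes, 974 and 512 without the filter, 1499 and 902 with DBA/2 arrays only, and 1524 and 892 with array weights. Quantile normalization gave 1475 rises, normexp 408 falls, and leaving out 1 sample 1699 to 2979 rises and 771 to 1659 falls. For the strain difference, 1449 and 1374 became 485 and 39 with normexp and 533 and 361 without the filter, and leaving out 1 sample gave 987 to 1719 and 753 to 1514. The causes were not tested.

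Samples of the same number did not deviate together at 9 w and 0 w (r = 0.0271 across probes), so the numbers do not pair them. Among 0 w, 2 w, 4 w and 8 w this r was 0.3355 to 0.4129, and their samples of 1 number shared a slide, whereas r was 0.0176 to 0.0551 in every pair with 9 w. With the replicate number as a block, 3578 rises and 4049 falls were called, and 2389 negative strain differences.

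Over the 138 named genes, 2145 of 2469 values under the alternatives kept their direction and side of the threshold, 298 lost the call, 6 gained it and 20 turned. Relative to the median under normexp, which was chosen after seeing the data, the changes that turned were Pcp4 0.127, Kcnmb4 0.011, Lta 0.023, Mbl2 0.061, Ptprc −0.963, Treml1 −0.096, Itga2b −0.132, Gp1bb −0.178, Irf1 −0.127, Irgm1 −0.023, H2-D1 −0.28, B2m −0.384, Gapdh −0.339, Cxcr6 −0.282, Cxcr3 −0.329, Cybb −0.297, Cyba −0.139 and Ncf4 −0.688. Ptprc turned to −0.143 with quantile normalization and Coro1a, which was not called, lay between −0.126 and 0.024 with 1 sample left out, the latter without 0 w replicate 1. Of the calls lost, 135 were lost with the 4 arrays alone and 72 relative to the median under normexp.

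Genes not well above background at 1 time have only a bound there. The 2 arrays of each group limit the precision of every value.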
